A study of Homo sapiens with 13 samples.

Results

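Bidirectional promoters, short stretches of DNA from which 2 protein-coding genes are transcribed away from each other, were examined in TE-7, a human line derived from the esophageal epithelium. A promoter was taken as a member when a minus-strand and a plus-strand gene with protein-coding transcript IDs started on the same chromosome and the plus-strand start lay 0 to 1000 bp after the minus-strand start. The positions came from the RNA tables, on build hg19 (GRCh37), and no measured value entered the choice. In this way 758 pairs were found, with 1508 genes, which were 7.9% of the 19100 protein-coding genes and part of the 23637 gene symbols listed. The starts lay between 1 and 993 bp apart, with a median of 153 bp and quartiles of 73 and 326 bp. There were 8 genes that stood in 2 pairs, and 14 pairs had both starts in common with another pair, so that 751 pairs of starts were distinct.

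Cells received 100 ng/ml of the allergy-related cytokine interleukin-13 (IL-13) or were left as control. RNA was sequenced after 2, 6 and 24 hr in IL-13 and in control cells, which gave 6 libraries. Chromatin immunoprecipitation with sequencing was done for the histone marks H3K4me3, H3K9Ac and H3K27Ac with 6 hr of IL-13 and in control, which gave another 6 libraries. Each group was 1 library of 1 cell line, so no single comparison between treated and control cells had a replicate check. RNA levels are given as RPKM, reads scaled to gene length and to the total of a library.

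In bidirectional promoters a single nucleosome-free stretch serves both strands, and genes for DNA repair, mitochondria, ribosomes and histones are known to be arranged this way. Such promoters are known to be rich in CpG and in motifs of ETS factors and to lack TATA boxes more often than others. H3K4me3 is a mark of promoters, and H3K9Ac and H3K27Ac mark active promoters and enhancers. IL-13 acts mainly through the transcription factor STAT6.

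Squamous keratins were abundant in the cells, apart from KRT4 at 0.606 to 4.12 RPKM. KRT5, a keratin of basal squamous epithelium, stood at 1323 to 2200 RPKM over the 6 libraries and TP63, a transcription factor of basal cells, at 81.7 to 230 RPKM, while CDX2, which defines intestinal columnar epithelium, was listed at 0 in each. The 4 columnar markers summed to at most 0.153 RPKM and the 4 leukocyte markers to at most 0.524 RPKM. The control library at 2 hr stood apart, since 7 brain markers summed to 21.8 RPKM there, against 6.21 to 7.48 RPKM in the other 5 libraries. MBP alone made 10.6 RPKM there and 6.05 to 7.25 RPKM in the other 5. A longer list of brain genes did not set this library apart, at a sum of 304 RPKM, against 226 to 308 RPKM in the others. The control libraries at 2 and 6 hr also had 359 identical values above 0, and no such value was found in the other 14 pairs of libraries. Depth could be read from the low values at 24 hr alone, as 14 M reads with IL-13 and 13.6 M reads in control, where M stands for megareads. In bulk RNA, fewer cells with a transcript and less RNA per cell cannot be told apart.

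Sequences between the 2 starts are shown for pairs that the later results turn on. They were taken from the promoter table of RefSeq on build GRCh38.p14 and are read on the plus strand, so the minus-strand gene starts at the left end and the plus-strand gene at the right end. RefSeq's starts can lie some bases from those in the files. Capitals mark motifs, namely CCGGAAGT of ETS factors such as GABPA, GCATGCGC of NRF1, CCAAT of NFY, GGGCGG of SP factors and TATAAA of the TATA box, each on either strand. DUOXA1 and DUOX1, at chr15:45129880-45129993, are shown because both were higher with IL-13. COL4A1 and COL4A2, at chr13:110307158-110307283, were both lower at 24 than at 6 hr. GART and SON, at chr21:33542893-33543037, had one of the largest H3K4me3 differences between libraries. C2orf77 and PHOSPHO2-KLHL23, at chr2:169694406-169694468, hold an ETS motif, and neither gene exceeded 1.28 RPKM. RPL9 and LIAS, at chr4:39458923-39459055, had a 151-fold difference in RNA level. HIST1H2AM and HIST1H2BO, at chr6:27893186-27893424, stand for the replication-dependent histone pairs.
DUOXA1/DUOX1: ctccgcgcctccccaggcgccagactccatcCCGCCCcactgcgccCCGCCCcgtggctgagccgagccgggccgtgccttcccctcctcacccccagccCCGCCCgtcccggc
COL4A1/COL4A2: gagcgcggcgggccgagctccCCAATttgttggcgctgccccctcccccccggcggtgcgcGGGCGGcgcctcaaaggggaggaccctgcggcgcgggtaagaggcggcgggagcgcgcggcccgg
GART/SON: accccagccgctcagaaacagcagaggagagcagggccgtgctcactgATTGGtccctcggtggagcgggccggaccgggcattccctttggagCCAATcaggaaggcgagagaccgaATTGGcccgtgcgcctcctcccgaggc
C2orf77/PHOSPHO2-KLHL23: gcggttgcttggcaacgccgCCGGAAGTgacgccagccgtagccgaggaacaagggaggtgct
RPL9/LIAS: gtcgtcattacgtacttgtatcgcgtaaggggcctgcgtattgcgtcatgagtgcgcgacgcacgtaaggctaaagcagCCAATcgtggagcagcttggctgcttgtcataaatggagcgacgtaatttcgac
HIST1H2AM/HIST1H2BO: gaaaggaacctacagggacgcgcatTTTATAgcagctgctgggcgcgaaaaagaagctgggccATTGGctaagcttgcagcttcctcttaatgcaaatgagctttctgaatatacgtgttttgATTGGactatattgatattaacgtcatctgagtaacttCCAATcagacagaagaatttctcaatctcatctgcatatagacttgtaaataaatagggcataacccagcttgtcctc

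The first of these stretches was 80.7% G and C with 3 GC boxes, and the histone stretch was 41.4% G and C with CCAAT boxes and a TATA box. Over the 248 pairs whose starts in RefSeq and in the files agreed to within 100 bp and left at least 20 and at most 250 bases between them, the median was 67.6% G and C. Of these stretches, 143 held a GC box, 88 a CCAAT box, 41 the ETS motif, 14 the NRF1 motif and 10 a TATA box. STAT6's motif, TTC, 4 bases of any kind, then GAA, was found in 4 of them. A match is a description of letters and not a measured binding site.

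Promoter windows of 300 bases, 250 before and 50 after each start, were available for 1287 of the 1508 members, 1090 of them expressed. They lie at RefSeq's most upstream start of each gene, which need not be the start that defined the pair. Of 602 pairs with both genes matched, 331 kept a distance within 100 bp of that in the files. Because most expressed genes have CpG-rich promoters, expressed genes outside the pairs were set beside the members. ETS motifs stood in 15.5% of member windows, against 8.82% of the 7691 windows of other expressed protein-coding genes and 4.41% of all 27305 windows. For AAGATGGC of YY1, which often lies just inside a transcript, the shares were 9.09%, 5.41% and 3.01%. CCAAT boxes stood in 42.9%, 36.3% and 35.7% of these windows, and NRF1 motifs in 6.92%, 5.82% and 3.29%. Where both genes of a pair were expressed, 18.6% of 964 windows held the ETS motif and 11.6% that of YY1.

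GC and TATA boxes and the STAT6 motif were somewhat less frequent in members than in other expressed genes. GC boxes stood in 71.1% of member windows, against 72.5% of windows of other expressed genes and 44.5% of all windows. TATA boxes were found in 4.43%, 5.40% and 12.02% of them, and the STAT6 motif in 3.73%, 4.55% and 6.38%. Member windows include those of low genes. In the 964 windows of pairs with both genes expressed, GC boxes stood in 71.4%, TATA boxes in 3.32% and the STAT6 motif in 3.84%. The cyclic AMP response element TGACGTCA was somewhat more frequent in members, at 3.81%, 3.26% and 1.97%, and the E-box CACGTG stood in 10.4%, 10.15% and 7.40%. Each motif was searched on both strands, no motif spells a part of another, and partners' windows overlap, so members are not independent windows. Median CpG observed over expected was 0.875 in members, 0.852 in other expressed genes and 0.577 over all windows.

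**Figure D1:**
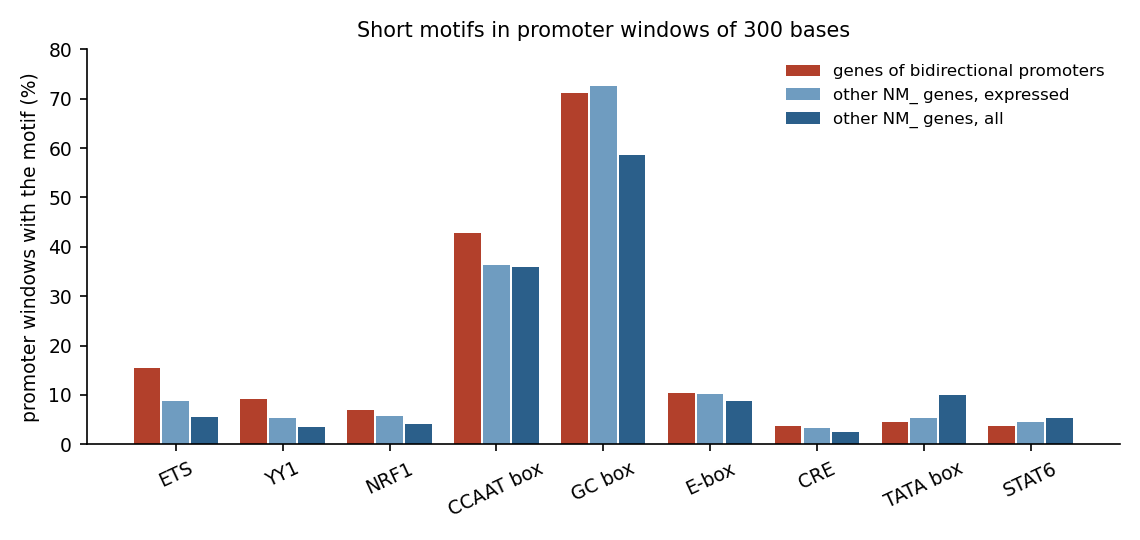
Percent of 300-base promoter windows (y axis) that hold each motif (x axis), for members, other expressed protein-coding genes and all other protein-coding genes. The ETS motif stood in 15.5% of member windows, against 8.82% and 5.52% in the other groups, while GC boxes were at 71.1% and 72.5% in members and other expressed genes.

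Most of the paired genes were transcribed. Of the 1508 members, 1264 (83.8%) reached an RPKM of 1 in all 6 libraries, against 9408 of the 17592 other protein-coding genes (53.5%), and 167 members (11.1%) stayed under 1 in all 6, against 7066 (40.2%). Among genes that were expressed by this rule, the median of the mean level was 15.8 RPKM in members and 13.8 RPKM in the others, so the groups differed more in how many genes were on than in how high they stood. Between 1278 and 1324 members reached an RPKM of 1 in each library.

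Both genes of most pairs were on, at a share close to what the single genes' shares give. Both genes were expressed in 559 pairs (73.7%), 1 gene was expressed and its partner low in 97 (12.8%), and both were low in 29 (3.83%), with 73 pairs (9.63%) near the limit. Divergent pairs of protein-coding genes over 1000 and up to 10000 bp apart, of which there were 794, had both genes expressed in 43.7%, 1 low partner in 28.0% and both low in 13.9%. Taken singly, 84.3% of minus-strand and 83.1% of plus-strand members were expressed, whose product is 70.1%, beside 62.8%, 62.3% and 39.2% in the pairs farther apart. With growing distance inside the limit, the share of pairs with both genes expressed was 76.1% at 0 to 100 bp, 74.3% above that and up to 300 bp, 71.3% up to 600 bp and 67.9% up to 1000 bp. The 5 pairs just inside the limit included C2orf76/DBI at 993 bp and TXNDC9/EIF5B at 974 bp, where EIF5B, a factor of translation initiation, averaged 36.7 ± 4.99 RPKM (SD over 6 libraries). Just outside it were PSMB1/TBP at 1004 bp and IFT80/SMC4 at 1027 bp, where SMC4, a condensin subunit, averaged 46.2 ± 6.12 RPKM (SD over 6 libraries).

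Levels of the 2 partners were nearly unrelated. Across the 559 pairs with both genes expressed, Pearson's r of the partners' mean log2 levels was 0.10 and Spearman's rho 0.13, a description over pairs measured in the same 6 libraries. It was 0.13 for the 409 pairs up to 300 bp apart, 0.02 for the 150 more distant ones and −0.05 for 347 expressed divergent pairs farther apart. The higher partner stood a median of 2.70-fold above the lower, with quartiles of 1.54 and 5.79, and 207 pairs (37.03%) lay within 2-fold. More than 10-fold separated 79 pairs (14.1%), against 17.3% of the pairs farther apart.

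**Figure D2:**
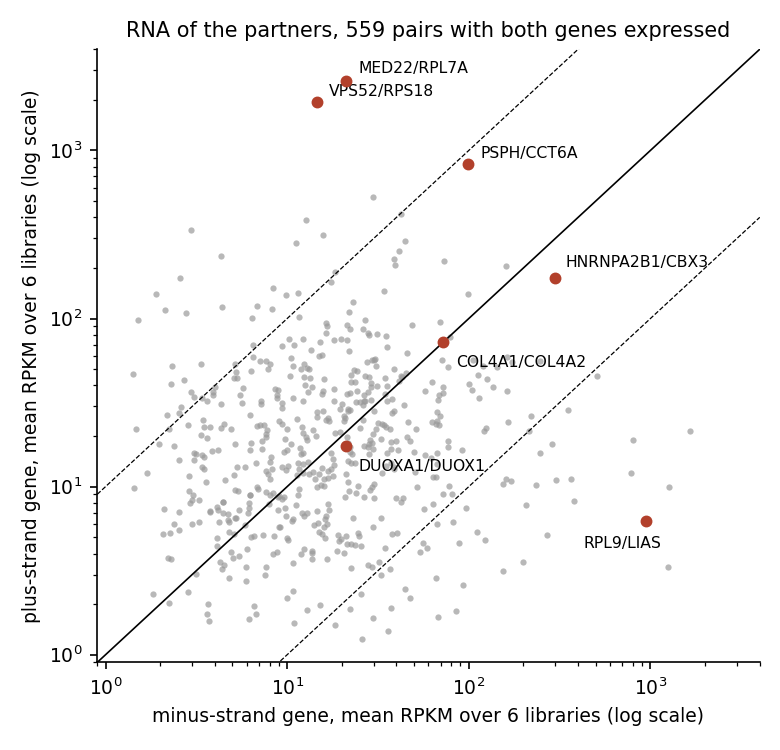
Mean RNA level of the plus-strand gene against that of the minus-strand gene for each bidirectional pair, as RPKM on log axes, 1 point a pair. The points of the 559 pairs with both genes expressed spread widely around the line of equal levels, with r of 0.10 on the log2 scale.

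Ribosomal protein genes gave the widest gaps among expressed pairs. RPL9, a protein of the large ribosomal subunit, had 877, 900 and 1052 RPKM with IL-13 at 2, 6 and 24 hr, against 924, 938 and 1006 RPKM in control. LIAS, the lipoic acid synthase of mitochondria, which starts 97 bp away on chromosome 4, had 4.75, 6.72 and 7.29 RPKM with IL-13 and 4.99, 6.54 and 7.38 RPKM in control. The mean of RPL9 was therefore 151 times that of LIAS, and the 2 genes' values did not overlap in any library. RPL7 stood 376-fold above RDH10, a retinol dehydrogenase, RPS18 133-fold above VPS52, RPL12 127-fold above LRSAM1 and RPL7A 123-fold above MED22. Ribosomal protein genes have many processed pseudogenes, so their reads are uncertain.

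Other promoters served a pair of abundant transcripts. HNRNPA2B1, an RNA-binding protein of splicing, averaged 300.2 RPKM and CBX3, a heterochromatin protein, 175 RPKM, with starts 911 bp apart on chromosome 7. TRMT112, a methyltransferase cofactor, averaged 160.5 RPKM and PRDX5, a peroxiredoxin, 205 RPKM. HDLBP and SEPT2 averaged 99.6 and 141 RPKM, and BOP1 and HSF1, the heat shock transcription factor, 78.5 and 77.4 RPKM. In these pairs the lower partner was the highest of any expressed pair, together with PSPH at 98.9 RPKM beside CCT6A, a chaperonin subunit, at 833 RPKM.

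In 97 pairs an expressed gene stood beside a low one. The expressed gene had a median of 12.01 RPKM, the low partner a median of 0.205 RPKM with quartiles of 0.0977 and 0.342, and 3 low partners were listed at 0 in every library. GSS, the glutathione synthetase, had 49.99, 46.2 and 60.1 RPKM with IL-13 at 2, 6 and 24 hr and 49.4, 45.1 and 57.1 RPKM in control. MYH7B, a muscle myosin that starts 103 bp away, stayed between 0.0746 and 0.158 RPKM, which put the mean of GSS 510 times above it. ARPC5, a subunit of the actin-nucleating complex, averaged 106 RPKM beside RGL1 at 0.227 RPKM. PSMA1, a proteasome subunit, averaged 154 RPKM beside PDE3B, a phosphodiesterase, at 0.0339 RPKM, and SURF4 averaged 157 RPKM beside C9orf96 at 0.136 RPKM. At the starts of PSMA1 and PDE3B only an H3K9Ac peak was listed, without H3K4me3 or H3K27Ac. RNA is listed for a gene symbol as a whole, so RNA from other starts of a gene cannot be told apart.

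Among the members were 13 of 18 pairs listed as known bidirectional pairs. NPAT, a coactivator of histone genes, averaged 3.64 ± 0.764 RPKM and ATM, the DNA damage kinase, 1.75 ± 0.619 RPKM (SD over 6 libraries). PPAT and PAICS, enzymes of purine synthesis, averaged 11.6 and 103 RPKM, and SURF1 and SURF2 29.2 and 56.7 RPKM. TAP1, the peptide transporter of antigen presentation, averaged 26.3 RPKM and PSMB9, an immunoproteasome subunit, 8.63 RPKM. TK1, the thymidine kinase, averaged 153 RPKM beside AFMID at 10.3 RPKM.

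Histone marks lay at nearly every paired start. An H3K4me3 peak was listed at 96.2% of member starts, against 57.9% of the other protein-coding starts, an H3K9Ac peak at 96.8% against 61.5% and an H3K27Ac peak at 96.9% against 62.6%. All 3 marks stood at 1442 member starts (95.6%), against 9826 of the other starts (55.9%), and 37 members had no mark. The gap was narrower among expressed genes, where members had 99.1% and others 91.3% with H3K4me3, members 99.5% and others 93.7% with H3K9Ac, and members 99.5% and others 94.2% with H3K27Ac. Among low genes H3K4me3 stood at 74.9% of member starts, against 13.8% of the others, H3K9Ac at 76.6% against 17.7% and H3K27Ac at 77.2% against 19.3%.

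Pairs were mostly covered by the same peak. An identical H3K4me3 peak was listed at both starts of 725 pairs (95.6%), an H3K9Ac peak at 729 (96.2%) and an H3K27Ac peak at 732 (96.6%). In divergent pairs over 1000 and up to 10000 bp apart the shares were 38.8%, 40.1% and 39.9%. The 2 sets of pairs differ in distance by construction.

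Low partners carried the mark of the promoter that they share. Of the 97 low partners of an expressed gene, 90 (92.8%) had an H3K4me3 peak and 93 (95.9%) had an H3K9Ac peak, as many as had an H3K27Ac peak. In pairs farther apart, 119 of 222 such low partners (53.6%) had H3K4me3, 138 (62.2%) H3K9Ac and 140 (63.1%) H3K27Ac. For example, the peak listed at the start of MYH7B is the one at the start of GSS. Where both genes of a pair were low, 12 of 29 pairs had both starts marked, by each of the 3 marks.

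**Figure D3:**
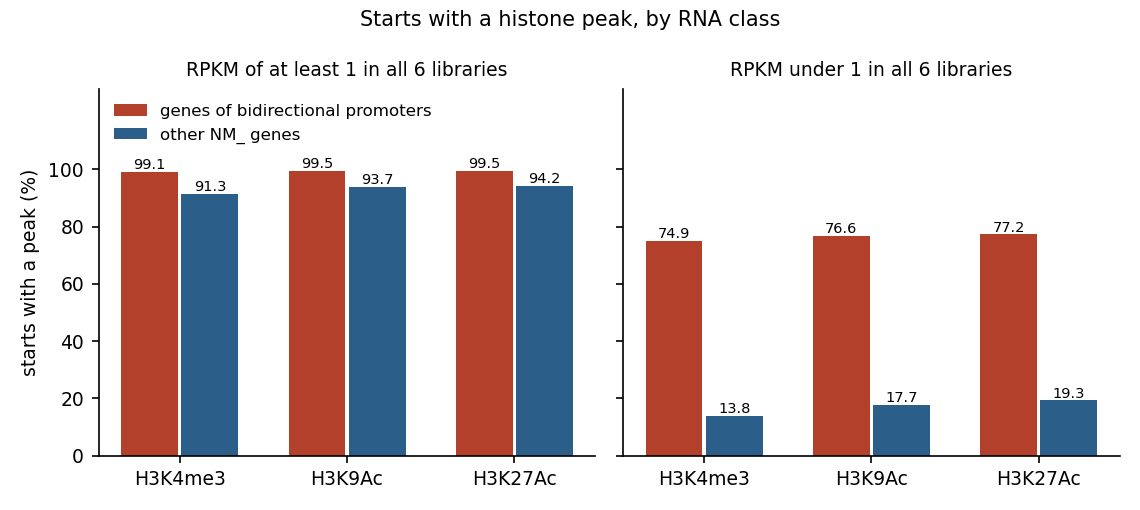
Percent of starts with a peak (y axis, from 0) for each of the 3 marks, in members and in other protein-coding genes, split into expressed and low genes. Low members had H3K4me3 at 74.9% of starts, against 13.8% of low genes outside the pairs, while expressed genes were at 99.1% and 91.3%.

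Peak height was computed from the authors' M, the log2 ratio of library 1 over library 2, and A, the mean log2 level, and is given on the linear scale. Among expressed genes the median level in the higher of both libraries was, for H3K4me3, 93.1 in members and 77.2 in others, for H3K9Ac 201 and 167, and for H3K27Ac 187 and 162. Across pairs with both genes expressed, Spearman's rho of A for H3K4me3 with the RNA level was 0.39 for the higher partner and 0.32 for the lower (556 pairs in the same libraries). It was 0.44 and 0.38 with H3K9Ac, and 0.40 and 0.30 with H3K27Ac (557 pairs each). These are descriptions across promoters and not tests.

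No mark was listed at 18 pairs, and in 12 of them both genes were low. Among the others was FILIP1L/C3orf26, where C3orf26 averaged 42.4 ± 6.05 RPKM and FILIP1L 0.0318 ± 0.0531 RPKM (SD over 6 libraries). SP110, an interferon-inducible nuclear body protein, averaged 9.78 RPKM beside its relative SP140 at 0.290 RPKM, with starts 1 bp apart. DUOX2, a dual oxidase, and its maturation factor DUOXA2 also had no peak at their starts and averaged 5.93 and 2.75 RPKM. Because RNA is listed for a gene symbol as a whole, the RNA of these genes may come from other starts, which was not tested. These pairs were named after their values were seen.

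IL-13 left most paired genes within 2-fold. A gene was counted when log2(RPKM + 0.1) differed by at least 2-fold and the higher library reached an RPKM of 1. At 2 hr 1 of 1286 members compared was higher with IL-13, beside 0.658% of all genes, and 1 was lower, beside 0.342%. At 6 hr 1 of 1283 was higher, beside 0.753% of all genes, and 0 were lower, beside 0.318%. At 24 hr 2 of 1336 were higher, beside 0.886% of all genes, and 3 were lower, beside 1.27%. With a minimum of 3 RPKM in the higher library no member was counted at 2 or 24 hr, and with log2(RPKM + 1) no member at 24 hr, so each call at 24 hr named below ends there. The share that was higher with IL-13 at 2, 6 and 24 hr was 0.0778%, 0.0779% and 0.15% of members, against 0.404%, 0.608% and 0.534% of other protein-coding genes. The share that was lower was 0.0778%, 0% and 0.225% of members, against 0.202%, 0.122% and 1.05% of the others.

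The narrow spread was also seen in expressed genes as a whole. The SD of the log2 ratio over the 1264 expressed members was 0.12 at 2 hr, 0.13 at 6 hr and 0.18 at 24 hr, against 0.17, 0.21 and 0.27 over 9408 other expressed genes. At 6 hr the 0.01 and 0.99 quantiles of the log2 ratio were −0.28 and 0.42 over expressed members, and −0.50 and 0.63 over the others.

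No member passed an adjusted p under 0.05 in the limma fit of treatment over the 3 times, whose p-values measure the spread over times in libraries not stated to be separate cultures. The fit had 1288 members among 11953 genes, of which 0 (0%) were called, and 145 members (11.3%) had an unadjusted p under 0.05, against 2025 genes in all (16.9%). With an intensity trend limma called 6 genes and 0 members. TMTC3, an endoplasmic reticulum transmembrane protein, came first among members, with 11.2, 16.2 and 31.6 RPKM with IL-13 and 8.32, 10.7 and 21.4 RPKM in control. Its log2 change was 0.53 ± 0.054 (SE), and the limma adjusted p was 0.163. FAM217B at 0.50, FGD6 at 0.50, SOWAHC at 0.37 and LRRC8A, a volume-regulated anion channel subunit, at −0.42 followed on the same log2 scale.

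DUOXA1 and DUOX1 were the pair in which IL-13 and control differed together at 6 hr. DUOX1 is a dual oxidase that makes hydrogen peroxide at epithelial surfaces, and DUOXA1 is its maturation factor. They start 135 bp apart on chromosome 15, at 45422057 and 45422192 on hg19. DUOXA1 had 20.6, 26.0 and 29.2 RPKM with IL-13 at 2, 6 and 24 hr, against 13.7, 12.4 and 25.3 RPKM in control. DUOX1 had 15.0, 14.7 and 28.9 RPKM with IL-13, against 12.5, 8.69 and 24.4 RPKM in control. Both genes were higher with IL-13 at each time, and over all times the 2 groups overlapped, because control levels at 24 hr lay above those with IL-13 at 2 hr.

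The log2 ratio of DUOXA1 was 0.58 at 2 hr, 1.06 at 6 hr and 0.21 at 24 hr, and that of DUOX1 was 0.26, 0.75 and 0.25. Both starts lie under the same peaks. In the authors' deposited table the M value, log2 of library 1 over library 2, was 0.43 with H3K4me3, −0.51 with H3K9Ac and −0.87 with H3K27Ac at this promoter. The H3K27Ac level from these values was 275 in library 1 and 503 in library 2, and the tables do not state which library was treated.

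DUOX2 and DUOXA2 form a neighbouring bidirectional pair 164 bp apart. DUOX2 had 5.89, 4.72 and 9.82 RPKM with IL-13, against 5.21, 3.46 and 6.47 RPKM in control. DUOXA2 had 2.57, 2.43 and 5.09 RPKM with IL-13, against 1.98, 1.70 and 2.73 RPKM in control. Each was higher with IL-13 at each time, with log2 ratios at 24 hr of 0.59 for DUOX2 and 0.87 for DUOXA2, under the 2-fold limit. DUOX1 and DUOX2 are close paralogs, so reads may be shared between them.

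At a lower limit of 1.5-fold, 3 pairs had both partners past it, each in 1 direction. They were DUOXA1/DUOX1 at 6 hr among 575 pairs compared, and DUOX2/DUOXA2 and MMRN2/SNCG at 24 hr among 613. At 2 hr there was no such pair among 577, and no pair had partners past it in opposite directions at any time. By this limit 1, 6 and 15 members (0.0778%, 0.468% and 1.12%) were higher with IL-13 at 2, 6 and 24 hr, beside 1.57%, 1.74% and 2.51% of all genes compared. Lower were 1, 1 and 11 members (0.0778%, 0.0779% and 0.823%), beside 0.9%, 1.28% and 3.89%. With so few members past the limit, few pairs could have both partners past it, so the absence of opposite pairs does not show that partners agree.

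SNCG, which encodes gamma-synuclein, was 1 of 2 members that the authors' deposited table called at 24 hr. It had 48.8, 46.0 and 27.2 RPKM with IL-13, against 54.5, 51.3 and 53.3 RPKM in control. Its value with IL-13 at 24 hr lay below all others. The authors' deposited table gave it an adjusted p of 0.0150 and a log2 ratio of −0.98 at 24 hr. MMRN2, an endothelial extracellular matrix protein that starts 863 bp away on chromosome 10, had 1.30, 1.19 and 1.25 RPKM with IL-13, against 1.40, 1.27 and 2.06 RPKM in control. With 0.05 as the limit of its adjusted p, the authors' deposited table called no member at 2 hr (0.0127% of all genes), no member at 6 hr (0.351%) and 2 members at 24 hr (0.592%).

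**Figure D4:**
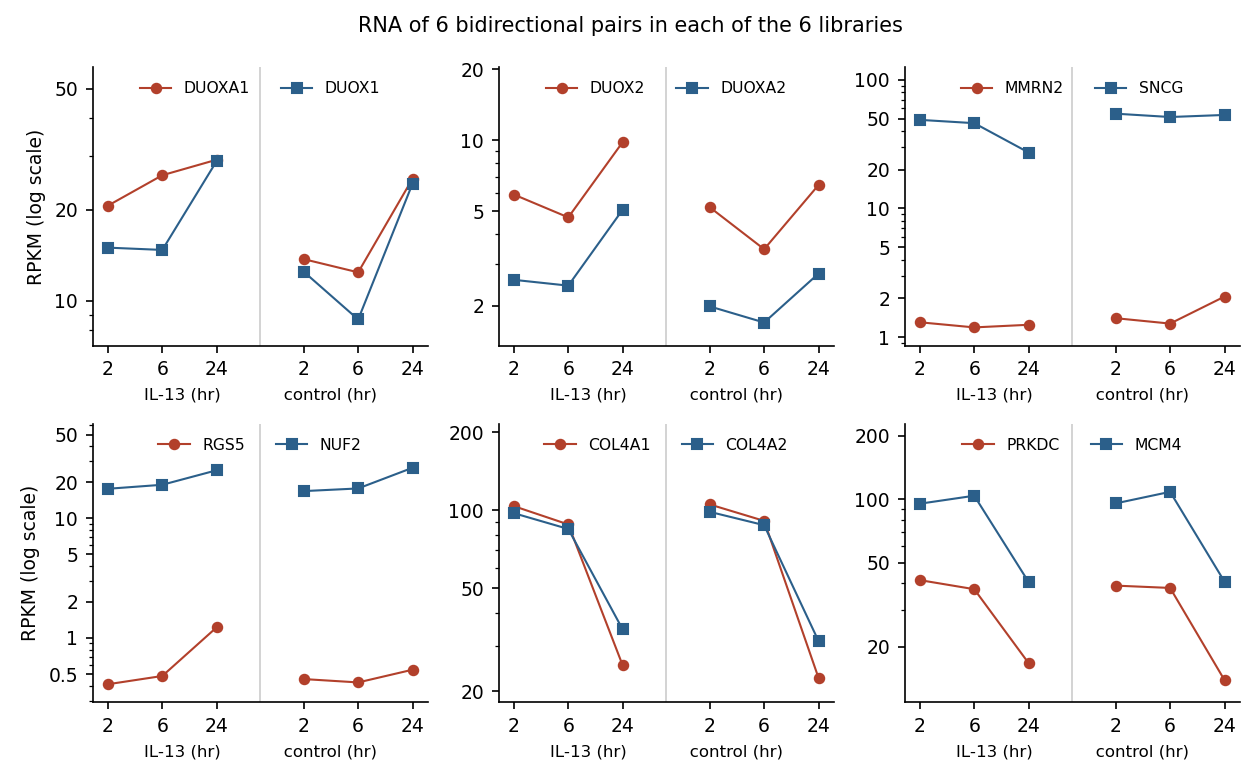
RPKM on log axes (y) of both genes of 6 bidirectional pairs in each of the 6 libraries (x, IL-13 at 2, 6 and 24 hr on the left and control on the right of each panel). DUOXA1 and DUOX1 stand higher with IL-13 at 6 hr, SNCG is lowest with IL-13 at 24 hr at 27.2 RPKM, and COL4A1 and COL4A2 are lower at 24 than at 6 hr in both arms.

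Of the genes higher with IL-13 at 24 hr, both had a partner with nearly equal values in the 2 arms. RGS5, a regulator of G protein signalling, had 0.411, 0.481 and 1.23 RPKM with IL-13, against 0.454, 0.425 and 0.543 RPKM in control, a log2 ratio of 1.05 at 24 hr. NUF2, a kinetochore protein 142 bp away, had 25.2 RPKM with IL-13 and 26.4 RPKM in control at that time. C11orf71 had 0.799, 1.34 and 2.09 RPKM with IL-13, against 0.727, 1.05 and 0.911 RPKM in control, a log2 ratio of 1.12 at 24 hr. RBM7, an RNA-binding protein 245 bp away, had 16.2 RPKM with IL-13 and 16.1 RPKM in control.

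CRYAB, a small heat shock protein, was lower with IL-13 at 2 and 24 hr. It had 0.212, 0.422 and 0.413 RPKM with IL-13, against 1.55, 0.509 and 1.39 RPKM in control, and log2 ratios of −2.40, −0.22 and −1.54. Its partner HSPB2, 987 bp away, was listed at 0 in all 6 libraries. CRYAB is abundant in brain, and in the control at 2 hr GFAP was listed at 2.06 RPKM and SNAP25 at 3.57 RPKM, with at most 0.135 and 0.0133 RPKM in the other libraries. At 24 hr the 7 brain markers summed to 6.56 RPKM with IL-13 and 7.48 RPKM in control. MBP alone made 6.21 and 7.25 RPKM of these sums, so they show little of the other brain markers. The part of brain RNA in the values of CRYAB was not tested.

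The remaining counted genes stood at 2.22 RPKM or less in every library. PHOSPHO2-KLHL23, a read-through gene that shares exons with PHOSPHO2 and KLHL23, had 1.28, 0.969 and 0 RPKM with IL-13, against 0.548, 0.613 and 0.401 RPKM in control. Its log2 ratio was 1.09 at 2 hr and −2.33 at 24 hr, and the authors' deposited table gave an adjusted p of 0.00532 at 24 hr. HIST1H2AM, an H2A histone gene, had 1 read with IL-13 and 7 in control at 24 hr. HIST1H2AE, another H2A gene, had 8 reads with IL-13 and 17 in control, a log2 ratio of −1.06. Reads of read-through and of near-identical histone genes are uncertain.

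The partners' responses to IL-13 were weakly related. Over the 559 pairs with both genes expressed, Pearson's r of the partners' log2 ratios was 0.26 at 2 hr, 0.33 at 6 hr and 0.17 at 24 hr. Expressed divergent pairs farther apart had 0.18, 0.19 and 0.14 (347 pairs). Distance within the limit gave no steady order. At 6 hr r was 0.38 for the 409 pairs up to 300 bp apart and 0.18 for the 150 more distant ones, with Spearman's rho of 0.28 and 0.27. At 2 hr r was 0.25 and 0.27, with rho of 0.19 and 0.33. Without DUOXA1/DUOX1, r over all pairs at 6 hr was 0.28. The points share the same libraries and depth, so these are descriptions and not tests.

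**Figure D5:**
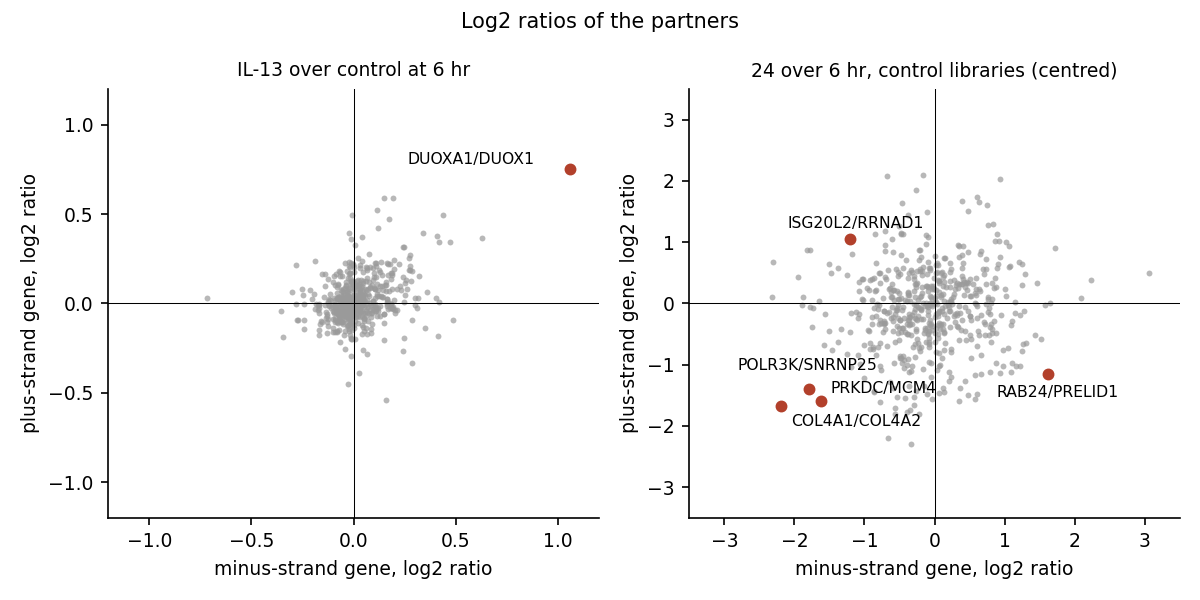
Log2 ratio of the plus-strand gene (y) against that of the minus-strand gene (x) for the 559 pairs with both genes expressed, 1 point a pair. The left panel gives IL-13 over control at 6 hr. The right panel gives 24 over 6 hr in the control libraries, relative to the median over all expressed genes. In the left panel most points lie near 0, r was 0.33, and DUOXA1/DUOX1 lies to the upper right. In the right panel r was 0.09.

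More members differed between 24 and 6 hr than between IL-13 and control. The 24 hr libraries stood above the 6 hr libraries by a median log2 of 0.18 over all expressed genes in each arm, and changes are given relative to it. In both arms 55 of 1264 expressed members (4.35%) were at least 2-fold higher at 24 than at 6 hr, beside 6.61% of all expressed genes, and 79 (6.25%) were lower, beside 5.22%. Without centring the balance turned, with 84 members (6.65%) higher, beside 9.7% of all expressed genes, and 48 (3.80%) lower, beside 3.31%. Both genes of 3 pairs were lower, COL4A1/COL4A2, PRKDC/MCM4 and POLR3K/SNRNP25. There was no pair with both genes higher, 2 with opposite directions, 109 with 1 gene past the limit and 445 with neither, of 559. What the shares of single genes would give was not computed, so these counts do not show that partners changed together or apart. With 1 library for each time and arm, time in culture and differences between library preparations cannot be told apart.

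Type IV collagens, the network proteins of basement membranes, are encoded by 6 genes in 3 bidirectional pairs. COL4A1 had 104, 88.0 and 25.1 RPKM at 2, 6 and 24 hr with IL-13, and 105, 90.9 and 22.5 RPKM in control. COL4A2 had 97.3, 84.5 and 34.6 RPKM with IL-13, and 98.5, 87.5 and 31.2 RPKM in control. Both were thus lowest at 24 hr in each arm, and their levels were nearly equal, at means of 72.5 and 72.3 RPKM. COL4A6 and COL4A5, 370 bp apart on chromosome X, averaged 6.74 and 13.7 RPKM and did not pass the limit. COL4A4 and COL4A3, 6 bp apart, did not exceed 0.0109 RPKM in any library.

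PRKDC, the catalytic subunit of the DNA-dependent protein kinase, and MCM4, a subunit of the replicative helicase, also shared a direction. PRKDC had 16.7 RPKM at 24 hr and 37.5 RPKM at 6 hr with IL-13, and 13.9 and 38.03 RPKM in control. MCM4 had 40.5 and 104 RPKM with IL-13, and 40.7 and 108 RPKM in control. POLR3K, a subunit of RNA polymerase III, had 13.9 and 40.7 RPKM with IL-13 and 14 and 42.9 RPKM in control, beside SNRNP25 of the minor spliceosome with 8.87 and 24.5 RPKM with IL-13 and 11.3 and 26.4 RPKM in control.

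Partners differed in direction in 2 pairs. RAB24, a small GTPase of autophagy, had 13.2 RPKM at 24 hr and 2.98 RPKM at 6 hr with IL-13, and 11.7 and 3.28 RPKM in control. PRELID1, a mitochondrial lipid transfer protein, had 69.6 and 126 RPKM with IL-13 and 66.3 and 130 RPKM in control. RRNAD1 was higher at 24 hr while its partner ISG20L2 was lower. Across the 559 pairs, r of the partners' 24 over 6 hr log2 ratios was 0.07 with IL-13 and 0.09 in control, against 0.18 and 0.20 over 347 pairs farther apart. For the 409 pairs up to 300 bp apart r was 0.12 with IL-13 and 0.17 in control. For the 150 pairs above that, up to 1000 bp, r was −0.06 and −0.12.

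The H3K4me3 libraries differed at more paired starts than those of the acetyl marks. By the authors' deposited table, with a level of at least 30 in the higher library, M was at least 1 at 108 of 1394 member starts (7.75%), beside 4.68% of the starts of all genes, and at most −1 at 11 (0.789%), beside 3.35%. At a level of at least 100 the authors' deposited table left 58 of 592 member starts (9.80%), beside 3.69%, and 2 (0.338%), beside 1.45%. The 108 starts belong to about 54 promoters, because partners share a peak. By the authors' deposited table H3K9Ac had 20 and 6 of 1443 starts, beside 2.17% and 1.6%, and H3K27Ac 30 and 4 of 1435, beside 3.19% and 1.72%. Among expressed genes the median M of H3K4me3 in the authors' deposited table was 0.30 in members and 0.07 in others, while H3K9Ac had 0.10 and 0.08 and H3K27Ac 0.11 and 0.08. A shift of this kind sits in a comparison of 1 library with 1 library.

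MEA1/KLHDC3 had M of 2.03 in the authors' deposited table, with levels of 36.6 in library 1 and 8.97 in library 2. GART, an enzyme of purine synthesis, and SON, a splicing cofactor, shared a peak with M of 1.88 in the authors' deposited table and levels of 131 and 35.5, while GART had 87.1 RPKM with IL-13 and 92.7 RPKM in control at 6 hr. ZDHHC3/EXOSC7, LYRM4/FARS2 and RARS2/ORC3 followed in the authors' deposited table, at M of 1.86, 1.77 and 1.75. On the other side, the authors' deposited table listed the lowest M, −2.13, at PPFIA3, with levels of 7.34 and 32.1. Its partner C19orf73 had M of −1.3 there, from another peak. SDF4/B3GALT6 had M of −1.22 in the authors' deposited table with levels of 71.5 and 167, and CEP170/SDCCAG8 had −1.74.

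Acetyl marks gave other promoters. For H3K27Ac the authors' deposited table listed M of 1.76 at CHDH/IL17RB, where IL17RB is a receptor chain of the cytokine IL-25, with levels of 81.0 in library 1 and 23.9 in library 2. IL17RB had 0.742 RPKM with IL-13 and 0.978 RPKM in control at 6 hr. GSS/MYH7B had M of 1.29 for H3K27Ac and FBXO2/FBXO44 of −1.74 in the authors' deposited table. For H3K9Ac the authors' deposited table had 2.02 at AKD1/FIG4, where FIG4 is a phosphoinositide phosphatase, and −1.37 at NGLY1/OXSM. At NGLY1/OXSM the H3K27Ac M in the authors' deposited table was 1.71, of the other sign. Levels there were low, at 17.2 and 44.5 in libraries 1 and 2 for H3K9Ac and 31.5 and 9.61 for H3K27Ac. Since the treated library is not stated for either mark, opposite signs need not mean opposite changes.

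Differences between libraries of one mark did not run along with those of another or with RNA. Over distinct member peaks, r of M was 0.12 between H3K4me3 and H3K9Ac (697 peaks), 0.09 between H3K4me3 and H3K27Ac (692) and 0.03 between H3K9Ac and H3K27Ac (716), computed from the authors' deposited tables. With the partners' mean log2 ratio at 6 hr, r was 0.03, −0.06 and −0.04 for the 3 marks.

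By function, the pairs took unequal shares of known gene groups. All 6 type IV collagens, 25 of 64 core histones (39.1%), 25 of 76 mitochondrial ribosomal proteins (32.9%) and 25 of 90 DNA repair and replication genes (27.8%) were members, beside 7.9% of protein-coding genes. Splicing factors gave 15 of 57 (26.3%), respiratory chain subunits 20 of 85 (23.5%), proteasome genes 10 of 48 and cytosolic ribosomal proteins 10 of 87. Interferon-stimulated genes gave 3 of 35 (8.57%), genes known to respond to IL-13 1 of 42 and squamous differentiation genes 0 of 32, beside the same 7.9%. The member known to respond to IL-13 was FOXA3, which did not exceed 0.0160 RPKM, beside SYMPK, 970 bp away, at a mean of 11.96 RPKM.

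Members of these groups did not pass the 2-fold limit with IL-13, apart from 2 core histones that were lower at 24 hr. The 25 mitochondrial ribosomal members were all expressed, at means of 21.8 to 119.5 RPKM, and their median log2 ratio was −0.03, −0.0017 and 0.06 at 2, 6 and 24 hr, beside 0.0023, −0.0042 and 0.02 over all genes compared. The 25 DNA repair and replication members were expressed too, with medians of 0.01, −0.03 and 0.09. They include XRCC6, a DNA end-binding protein, at a mean of 314 RPKM beside DESI1 at 15.7 RPKM, and PCNA, the replication clamp, at 303 RPKM beside CDS2 at 10.9 RPKM.

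Between 24 and 6 hr some groups had counted members. In DNA repair and replication 5 of 25 were lower and 1 higher, among chaperones 4 of 6 were lower, and among splicing factors 3 of 15 were lower, SRSF2 with 92.2 RPKM at 24 hr and 317 RPKM at 6 hr with IL-13 and 100.2 and 311 RPKM in control. Cell cycle genes had 3 of 7 lower. Core histones had 4 expressed members of 25, of which 3 were higher, HIST1H2AC with 12.4 RPKM at 24 hr and 1.53 RPKM at 6 hr with IL-13 and 17.3 and 1.78 RPKM in control. Beside these, 6.61% of all expressed genes were higher and 5.22% lower. In the whole groups, members included, 20 of 90 expressed DNA repair and replication genes and 16 of 30 chaperones were lower. So were 7 of 56 splicing factors and 14 of 38 cell cycle genes, while 6 of 9 expressed core histones were higher. These changes were therefore not particular to paired genes.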

How the data were processed

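For each gene symbol and time the authors deposited RPKM values beside a p-value, its adjusted form and a log2 ratio, per the file headers. Peaks of each mark come as the authors' deposited log2 ratio (M, rescaled), mean log2 level (A) and −log10 p-value. TopHat2 2.0.9, Bowtie 1.0.0, MACS2 2.0.10.20130712 and DESeq are named in the submitters' processing notes. Read counting, use of strand and pooling of reads are not given in the sources used. Because no header says which library of a pair received IL-13, 6 columns of reads were left aside.

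Pairs were found by their hg19 starts. Ratios were taken on log2(RPKM + 0.1), which understates changes of low genes. limma 3.58.1 (R 4.3.3), tested on simulated data, fitted time and treatment, with Benjamini-Hochberg adjustment, to genes reaching an RPKM of 1 in 3 or more libraries. Levels of library 1 and library 2 were computed from M and A. The other tools were Python 3.11.15, with NumPy 2.4.6, pandas 2.3.3, SciPy 1.17.1 and, for plots, matplotlib 3.10.9. At 24 hr 93.5% (IL-13) and 93.7% (control) of low values lay on whole reads, within 0.5%. At 2 and 6 hr at most 34.02% did, and depth was not resolved. The rule for members and the lists were chosen with earlier results of these data known, though the rule itself uses positions and transcript IDs alone. Genes named are those with the largest and smallest changes past the rule and their partners, the 5 pairs with the highest levels, the widest gaps and the extreme M, pairs known as bidirectional, and those at the distance limit. Other named genes were chosen after their values were seen. Alternatives changed the pseudocount, minimum RPKM, distance limit, minimum peak level and centring, and left out the control libraries with values in common.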

Additional observations from a re-analysis of the deposited data

Results flagged for a closer look

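Opposite directions at 2 times drew attention to 2 members, and neither difference was tested, since each time has 1 library a group. PHOSPHO2-KLHL23 had a log2 ratio of IL-13 over control of 1.09 at 2 hr and −2.33 at 24 hr, where it was listed at 0 with IL-13. HIST1H2AE had −1.06 at 24 hr and 0.99 at 2 hr. PHOSPHO2-KLHL23 reached at most 1.28 RPKM and HIST1H2AE at most 2.22 RPKM, and both may share reads with near-identical or overlapping genes.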

How the results depend on the processing

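Over 26 results, 74 alternatives were computed, of which 48 left the value close and 26 moved it. Counts and percents cannot change sign, so a reversal was possible only for the correlations, where there was none. The balance of higher to lower members between 24 and 6 hr turned without centring. The limma fit sets IL-13 beside control within each time, and no block by replicate number could be added because the labels carry none. With a level of at least 30 in the higher library, 92.4% of member starts had H3K4me3, 95.7% H3K9Ac and 95.2% H3K27Ac. Both genes were expressed in 78.6% of pairs at a minimum RPKM of 0.5 and in 57.1% at 3. With a pseudocount of 1, 0 members were higher with IL-13 at 2 hr and 0 at 24 hr, and 0 were lower at 24 hr. With no minimum RPKM, 3 were higher and 10 lower at 2 hr, 3 and 1 at 6 hr, and 11 and 8 at 24 hr. With a minimum of 3 in the higher library, 0 were higher and 0 lower at 2 hr, and likewise 0 and 0 at 24 hr. At a peak level of at least 100, H3K4me3 M was at least 1 at 58 starts and at most −1 at 2, and H3K27Ac M was at most −1 at 0. With M centred on all peaks, H3K27Ac M was at most −1 at 8. The partners' r at 6 hr was 0.42 among pairs with an RPKM of at least 5, and r of 24 over 6 hr in control was 0.17 within 300 bp. Without centring, 84 members were higher and 48 lower at 24 than at 6 hr. Without the control libraries at 2 and 6 hr, both genes were expressed in 74.1% of pairs and r of the partners' levels was 0.09. The cause of these moves was not tested beyond the change of filter itself. Single libraries, low RPKM and unknown depth at 2 and 6 hr limit each comparison.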
